A study of Mus musculus with 8 samples.

Results

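The genes described here make or handle cholesterol and fatty acids in naive CD4+ T cells. They are 34 named genes of the sterol pathway, its control by SREBP, sterol efflux and lipid synthesis, listed by name with earlier results of these data known, out of 24421 gene symbols counted. All 34 were present and all 34 passed the filter on low counts. The study deleted Pcbp1, which encodes an RNA-binding protein that attaches to C-rich RNA, in T cells and sequenced RNA from naive cells isolated from the spleen with a kit. The mice were C57BL/6 males of 6 to 8 weeks. The E1KO libraries, 4 of them, carry the title of the knockout, which in the study is a floxed Pcbp1 allele with Cre driven by Cd4, and the E1WT libraries, also 4, carry the title of the wild type. The genotype field states the reverse in 8 of 8 libraries, giving Pcbp1+/+Cd4-Cre for those titled E1KO and Pcbp1fl/flCd4-Cre for those titled E1WT, so that Cd4-Cre is written for both. Cd4-driven Cre acts from the thymus onward and in other cells that have expressed Cd4.

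Depth was 28264655 to 36738202 gene counts per library. Pcbp1 had 38.3 to 41.8 CPM (counts scaled to library size) in E1KO libraries, against 203 to 243 CPM in E1WT libraries, so the titles and not the genotype fields are followed here. Although all mice are labelled male, Xist stood at 365 to 426 CPM in E1KO libraries and at 0.55 to 2.89 CPM in E1WT libraries, while the Y-linked Ddx3y stood at 52.0 to 57.5 CPM in E1KO and 103 to 116 CPM in E1WT libraries. This signal and the titles cannot be told apart. The summed CPM of 7 CD4 T cell markers (Cd3d, Cd3e, Cd3g, Cd4, Lck, Cd28, Cd5) was 3118 to 3298 in E1KO and 3624 to 3774 in E1WT libraries, with 1 of the 7 higher and 4 lower, and the CD8 markers Cd8a and Cd8b1 together gave 20.3 to 27.9 CPM in E1KO and 25.4 to 31.0 CPM in E1WT libraries. Of 11 monocyte and macrophage markers 5 rose and 1 fell, with summed levels of 85.8 to 99.7 CPM in E1KO and 39.4 to 47.6 CPM in E1WT libraries. Of 10 erythroid markers 5 rose and the 3 globin genes Hbb-bs, Hbb-bt and Hba-a1 were at 0 in every library, with sums of 216 to 246 CPM in E1KO and 79.0 to 98.8 CPM in E1WT libraries. Of 8 dendritic cell markers 5 rose, with sums of 27.3 to 31.98 CPM in E1KO and 13.8 to 17.4 CPM in E1WT libraries. The part of these cells in the results was not tested. In bulk RNA, fewer cells of a type and less RNA per cell cannot be told apart.

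Cholesterol is built from acetyl-CoA through mevalonate, farnesyl units and squalene to lanosterol, which a chain of enzymes then trims to cholesterol. When sterols run low in the endoplasmic reticulum, SCAP escorts SREBP proteins to the Golgi, where they are cut and become transcription factors for these enzymes, and INSIG proteins hold them back when sterols are plentiful. Excess sterols act in the opposite way through the LXR receptors, which induce efflux pumps, and T cells raise the synthetic arm when they leave quiescence and build new membrane.

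Most of these genes did not pass the test between the titles. Of the 34 members, 7 had an edgeR quasi-likelihood adjusted p under 0.05, or 20.6%, against 23.3% of all 13333 tested genes. The lanosterol synthase Lss, the diphosphomevalonate decarboxylase Mvd and the thiolase Acat2 rose, 3 of 34 or 8.82%, where 12.2% of all tested genes rose. The efflux pump Abca1, the ubiquitin ligase Mylip, the mevalonate kinase Mvk and the sterol dehydrogenase Nsdhl fell, 4 of 34 or 11.8%, where 11.1% of all tested genes fell. These shares lie near those of all genes. The median log2 fold of E1KO over E1WT was -0.02 for the members and 0.0065 for all tested genes. The E1KO libraries lay entirely above the E1WT libraries for 2 members and entirely below for 4, together 17.6% of members against 26.0% of tested genes (13.9% above and 12.1% below). Nothing in the labels says that the libraries came from separate mice, so the p-values measure the spread between libraries.

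Only Abca1 and Mylip passed in every one of the 18 alternative settings as well as in the fit with all libraries. The counts of 3 and 4 depend on single libraries. The number that rose was 1 without E1KO 3, E1WT 1, E1WT 3 or E1WT 4 and 0 without E1KO 4, and the number that fell was 2 without E1KO 2 or E1WT 1.

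**Figure D1:**
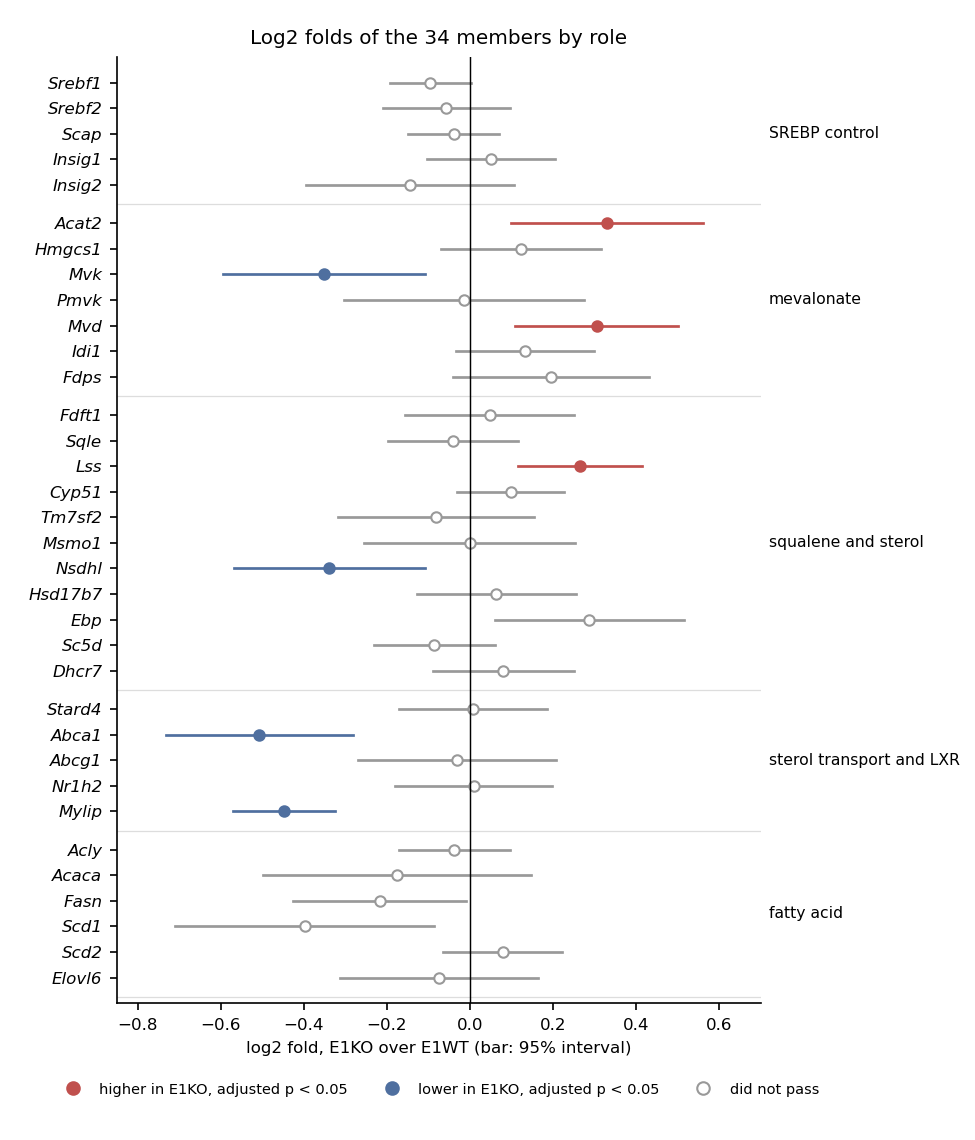
Log2 fold of E1KO over E1WT for the 34 genes, grouped by role, from the edgeR fit on 4 E1KO and 4 E1WT libraries. Bars are 95% intervals, filled points passed an adjusted p of 0.05 and open points did not. Abca1 (-0.51) and Mylip (-0.45) lie farthest to the left, and the 3 genes that rose lie between 0.26 and 0.33.

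Of the genes that sense and control sterol supply, 0 of 5 passed in edgeR, against 23.3% of all tested genes. Of the 5, 0 had an unadjusted p under 0.05. At least 23.3% of all tested genes had such a p, since adjustment never lowers a p. Srebf2, the main SREBP gene of cholesterol synthesis, had 475, 440, 412 and 436 CPM in E1KO libraries 1 to 4 and 478, 406, 459 and 491 CPM in E1WT libraries 1 to 4. The ranges overlap almost fully, with a log2 fold of -0.06 and a 95% interval of -0.21 to 0.10. Srebf1, whose products favour fatty acid synthesis, had 149, 151, 146 and 150 CPM in E1KO libraries and 159, 161, 157 and 159 CPM in E1WT libraries. All 4 E1KO values lie below all 4 E1WT values, but the gap is small, with a log2 fold of -0.09 ± 0.04 (SE) and an edgeR adjusted p of 0.15. The DESeq2 test put it just past the threshold, with an adjusted p of 0.049. Srebf1 shares 109 exon bases with Rai1 on the other strand and 66 with Mir6922.

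Scap, the escort of SREBP, averaged 138 ± 2.29 CPM in E1KO and 142 ± 6.26 CPM in E1WT libraries (SD, n = 4 each). Insig1, itself an SREBP target and commonly read as a gauge of SREBP activity, had 59.4, 55.1, 47.8 and 55.2 CPM in E1KO libraries and 50.3, 51.9, 53.4 and 54.2 CPM in E1WT libraries. The E1KO values span the whole E1WT range, and the log2 fold was 0.05 with a 95% interval of -0.10 to 0.21. Insig2, the paralog that is not driven by SREBP in the same way, averaged 18.1 ± 2.93 CPM in E1KO and 19.9 ± 1.32 CPM in E1WT libraries (log2 fold -0.14, 95% interval -0.40 to 0.11, edgeR adjusted p = 0.39).

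The promoters below are shown because SREBP, with its partner NF-Y, acts through short elements near the start of its target genes. Of the 34 members, 27 have a promoter in the RefSeq table for GRCm38.p6, which gives 250 bases before and 50 after a start. The sterol regulatory element searched for, TCACNCCAC on either strand, occurred in 1 of these 27, Hmgcs1, and in 1.44% of all 27025 genes in the table. The NF-Y box CCAAT, on either strand, occurred in 21 of 27 (77.8%) against 41.1% of all genes. The members all passed the filter on low counts, whereas the genes of the table were not limited in this way. The share among tested genes alone was not counted. The LXR direct repeat, known as DR-4 and searched on either strand, occurred in 0 of 27 and in 0.0148% of all genes. No matches overlap in the promoters printed here. Shown are Hmgcs1, the only member with the sterol element, Lss and Nsdhl, the synthesis enzymes with the smallest p among those that rose and fell, and Mylip and Abca1. Each line runs 5′ to 3′ on the strand of the gene, with matches of the sterol element or the NF-Y box (read as CCAAT or, on the other strand, as ATTGG) in capitals.
Hmgcs1, chr13:119690101-119690400, plus strand: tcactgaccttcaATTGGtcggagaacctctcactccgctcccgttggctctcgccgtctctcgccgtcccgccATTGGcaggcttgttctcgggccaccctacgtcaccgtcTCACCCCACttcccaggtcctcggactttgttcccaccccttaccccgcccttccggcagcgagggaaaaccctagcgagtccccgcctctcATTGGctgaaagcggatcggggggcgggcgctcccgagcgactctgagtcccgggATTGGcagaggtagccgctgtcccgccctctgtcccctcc
Lss, chr10:76531355-76531654, plus strand: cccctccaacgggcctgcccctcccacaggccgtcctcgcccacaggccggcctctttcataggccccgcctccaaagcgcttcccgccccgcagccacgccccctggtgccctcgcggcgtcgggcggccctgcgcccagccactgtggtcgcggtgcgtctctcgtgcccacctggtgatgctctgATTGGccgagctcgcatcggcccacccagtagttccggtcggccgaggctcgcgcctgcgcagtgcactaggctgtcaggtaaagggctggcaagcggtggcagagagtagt
Nsdhl, chrX:72918271-72918570, plus strand: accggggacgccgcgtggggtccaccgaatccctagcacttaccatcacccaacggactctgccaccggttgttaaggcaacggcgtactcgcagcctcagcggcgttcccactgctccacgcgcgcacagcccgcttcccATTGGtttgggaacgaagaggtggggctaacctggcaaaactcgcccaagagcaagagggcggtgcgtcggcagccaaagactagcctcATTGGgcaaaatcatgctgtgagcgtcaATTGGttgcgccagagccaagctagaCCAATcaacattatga
Mylip, chr13:45389492-45389791, plus strand: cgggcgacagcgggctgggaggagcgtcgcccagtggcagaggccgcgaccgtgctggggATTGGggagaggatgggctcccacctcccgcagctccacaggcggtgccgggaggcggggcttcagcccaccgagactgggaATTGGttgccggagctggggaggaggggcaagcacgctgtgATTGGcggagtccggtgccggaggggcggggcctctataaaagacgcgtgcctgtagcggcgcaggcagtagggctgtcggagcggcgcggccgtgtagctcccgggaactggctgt
Abca1, chr4:53159846-53160145, minus strand: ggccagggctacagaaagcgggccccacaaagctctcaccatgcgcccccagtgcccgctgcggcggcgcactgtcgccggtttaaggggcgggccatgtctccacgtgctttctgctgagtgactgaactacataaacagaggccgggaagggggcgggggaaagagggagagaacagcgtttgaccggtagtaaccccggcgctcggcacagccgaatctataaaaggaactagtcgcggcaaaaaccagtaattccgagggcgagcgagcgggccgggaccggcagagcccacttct
Hmgcs1 holds 1 sterol element, starting 137 bases upstream, with NF-Y boxes on both sides of it. Lss holds 1 NF-Y box, Nsdhl 4 and Mylip 3, and the Abca1 window holds no exact match to any of the 3 motifs. Imperfect forms of the LXR repeat were not searched for, in Abca1 or elsewhere. A match is a description of the letters and says nothing of binding in these cells.

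In the mevalonate steps, 2 of 7 enzymes rose and 1 fell, where 12.2% of all tested genes rose and 11.1% fell. Mvd, which decarboxylates mevalonate diphosphate to make isopentenyl diphosphate (chromosome 8, 122433601 to 122443422, minus strand, GRCm38), had 27.2, 25.7, 31.1 and 31.3 CPM in E1KO libraries 1 to 4 and 23.2, 25.03, 24.0 and 21.05 CPM in E1WT libraries 1 to 4. The lowest E1KO library lies just above the highest E1WT library, and the log2 fold was 0.31 ± 0.09 (SE, edgeR adjusted p = 0.029). The call was lost when any of E1KO 3, E1KO 4, E1WT 1, E1WT 3 or E1WT 4 was left out (adjusted p = 0.075, 0.093, 0.073, 0.060 and 0.068).

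Acat2, the cytosolic thiolase of the opening step (chromosome 17, 12942890 to 12960747, minus strand), had 19.3, 18.5, 20.7 and 18.8 CPM in E1KO libraries and 14.4, 18.7, 13.8 and 14.5 CPM in E1WT libraries. The titles overlap because E1WT 2 lies among the E1KO values, well above the other E1WT libraries. The log2 fold was 0.33 ± 0.11 with an edgeR adjusted p of 0.042. Without E1WT 2 it was 0.45 with an adjusted p of 0.0042, and the call was lost without any other library, with adjusted p from 0.060 to 0.12. Acat2 has a close relative, Acat3, and reads that align to both are among those left out of the counts.

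Mvk, which phosphorylates mevalonate (chromosome 5, 114444269 to 114460591, plus strand), went the other way, with 10.8, 10.3, 12.001 and 9.52 CPM in E1KO libraries and 14.8, 14.2, 11.4 and 14.03 CPM in E1WT libraries. E1WT 3 falls within the E1KO range, and the other 3 E1WT libraries lie above it. The log2 fold was -0.35 ± 0.11 with an edgeR adjusted p of 0.041. The call was kept only when E1KO 3 or E1WT 3 was the library left out. Without E1KO 1, E1KO 2, E1KO 4, E1WT 1, E1WT 2 or E1WT 4 the adjusted p was 0.056 to 0.12.

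The other 4 mevalonate enzymes did not pass. Hmgcs1, the HMG-CoA synthase whose promoter carries the sterol element shown above, had 87.5, 80.9, 70.7 and 71.8 CPM in E1KO libraries and 71.8, 62.9, 70.7 and 80.4 CPM in E1WT libraries. The E1KO 1 and E1KO 2 libraries are the highest of all 8 and the rest overlap (log2 fold 0.12, 95% interval -0.07 to 0.31). Fdps, which makes farnesyl diphosphate, Idi1, the isomerase of the isopentenyl unit, and Pmvk, which adds the next phosphate after Mvk, had log2 folds of 0.20, 0.13 and -0.01 (edgeR adjusted p = 0.22, 0.24 and 0.95).

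**Figure D2:**
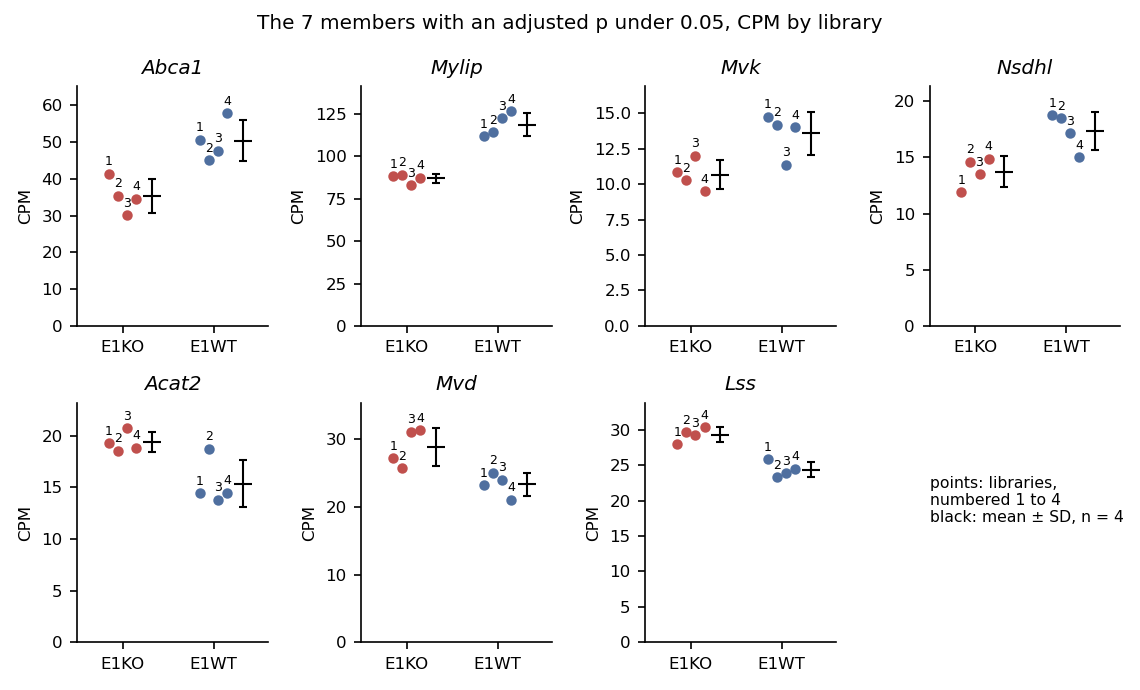
CPM of the 7 members that passed an adjusted p of 0.05 in each of 4 E1KO and 4 E1WT libraries, numbered 1 to 4, with mean and SD in black. Abca1, Mylip and Nsdhl lie lower in every E1KO library than in any E1WT library, Mvd and Lss lie higher, and Mvk and Acat2 overlap.

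From squalene to cholesterol, 1 of 11 enzymes rose and 1 fell, near the 12.2% and 11.1% of all tested genes. Lss, which closes squalene epoxide into lanosterol (chromosome 10, 76531588 to 76557138, plus strand), had 27.9, 29.6, 29.2 and 30.4 CPM in E1KO libraries and 25.8, 23.3, 23.9 and 24.5 CPM in E1WT libraries. The titles do not overlap and the spread within each is small, 29.3 ± 1.04 CPM in E1KO and 24.4 ± 1.096 CPM in E1WT libraries (SD, n = 4 each). The log2 fold was 0.26 ± 0.07 with an edgeR adjusted p of 0.016. With each library left out in turn, the call was lost without E1KO 4, at 0.053, and kept in the other 7 fits. The antisense gene 4930483K19Rik shares 381 of 10787 exon bases with Lss, and without a known strand setting in the counting, reads from that stretch cannot be assigned.

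Nsdhl, which acts with Msmo1 and Hsd17b7 in removing methyl groups from the sterol ring (chromosome X, 72918557 to 72958514, plus strand), had 11.9, 14.6, 13.5 and 14.9 CPM in E1KO libraries and 18.7, 18.5, 17.1 and 14.99 CPM in E1WT libraries. E1WT 4 lies barely above the highest E1KO library. The log2 fold was -0.34 ± 0.10 with an edgeR adjusted p of 0.037, and it was lost without E1KO 1, E1KO 2, E1KO 3, E1WT 1, E1WT 2 or E1WT 3 (adjusted p = 0.055 to 0.11). Ebp, the sterol isomerase and the other X-linked member, had 26.2, 29.9, 32.5 and 34.4 CPM in E1KO libraries and 23.3, 28.7, 26.2 and 22.5 CPM in E1WT libraries. The titles overlap, and with a log2 fold of 0.29 ± 0.10 Ebp missed the threshold in edgeR (adjusted p = 0.068). It passed without E1KO 1 (0.022) and without E1WT 2 (0.025). Ebp also passed in DESeq2, with the exon-length trend described below removed, and with E1KO 1 and E1WT 4 both left out. These X-linked genes had folds of opposite sign in libraries that differ in Xist, and the part of that signal was not tested.

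The other 8 enzymes had log2 folds from -0.09 to 0.10. Sqle, the squalene epoxidase that works just before Lss, had 35.7, 32.6, 30.0 and 34.3 CPM in E1KO libraries and 34.4, 32.5, 34.2 and 35.3 CPM in E1WT libraries. These ranges overlap, and the 95% interval of the log2 fold was -0.20 to 0.12. Cyp51, the demethylase that works just after Lss, averaged 52.6 ± 1.46 CPM in E1KO and 49.2 ± 2.63 CPM in E1WT libraries (log2 fold 0.10, edgeR adjusted p = 0.26). Dhcr7, the final reductase, averaged 48.9 ± 3.75 CPM in E1KO and 46.2 ± 3.75 CPM in E1WT libraries. Fdft1, Msmo1, Hsd17b7, Sc5d and Tm7sf2 had edgeR adjusted p values of 0.38 to 0.998. These enzymes join farnesyl units, remove methyl groups, reduce a keto group, and introduce or reduce ring double bonds. Fdft1 shares 774 of 4227 exon bases with Ctsb on the other strand and Tm7sf2 shares 532 of 4403 with Vps51 on the same strand, so their counts are uncertain.

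Neighbours in the pathway differed in their calls and folds, though no difference between genes was tested. Mvk fell and Mvd rose with Pmvk between them at a log2 fold of -0.01, and Lss rose between Sqle at -0.04 and Cyp51 at 0.10. Summed over the 18 enzymes of the mevalonate and sterol steps, the libraries held 533, 539, 555 and 552 CPM in E1KO and 523, 530, 501 and 497 CPM in E1WT. The E1KO sums all lie above the E1WT sums by a small margin, at 1.06 times the E1WT mean. The part in these sums of the exon-length trend described below was not tested. The mevalonate enzymes alone summed to 223 to 233 CPM in E1KO and 198 to 212 CPM in E1WT libraries. The squalene and sterol enzymes overlapped, at 307 to 327 CPM in E1KO and 294 to 318 CPM in E1WT libraries.

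**Figure D3:**
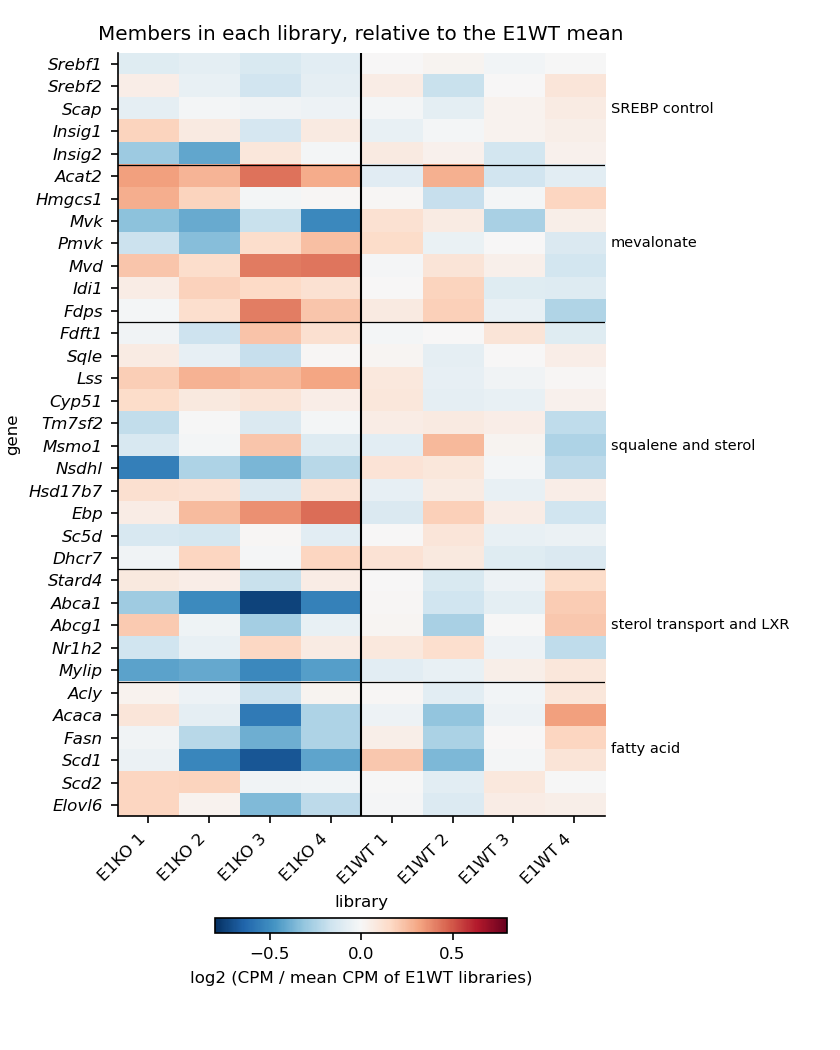
Log2 ratio of each library's CPM to the mean CPM of the E1WT libraries, for the 34 genes by role, with E1KO libraries on the left and E1WT libraries on the right. Abca1 and Mylip are blue in all 4 E1KO libraries, whereas rows of neighbouring pathway steps differ in colour.

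Of the 5 genes of sterol transport and LXR control, 2 fell and 0 rose, where 11.1% of all tested genes fell and 12.2% rose. Mylip encodes the ubiquitin ligase also known as IDOL, an LXR target that marks lipoprotein receptors for degradation and so limits cholesterol uptake. It lies on chromosome 13, 45389742 to 45412022, on the plus strand. Its levels were 88.1, 89.2, 83.1 and 87.3 CPM in E1KO libraries 1 to 4 and 112, 114, 122 and 126 CPM in E1WT libraries 1 to 4. The gap between the titles is wider than the spread within either, and the mean fell to 86.9 ± 2.67 CPM in E1KO, against 119 ± 6.90 CPM in E1WT libraries (SD, n = 4 each). The log2 fold was -0.45 ± 0.06 (SE, edgeR adjusted p = 0.00021), or 0.733 times the E1WT level. Across the 18 alternatives it ran from -0.50 to -0.41.

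Abca1, the pump that loads cholesterol onto apolipoproteins and a classic LXR target, fell as well (chromosome 4, 53030787 to 53159895, minus strand). Its levels were 41.4, 35.5, 30.2 and 34.7 CPM in E1KO libraries and 50.7, 45.1, 47.7 and 58.0 CPM in E1WT libraries. The titles do not overlap, though the spread within each is larger than for Mylip. The log2 fold was -0.51 ± 0.10 (edgeR adjusted p = 0.0047), or 0.703 times the E1WT level. It was -0.42 with the exon-length trend described below removed, and it ran from -0.59 to -0.42 across the alternatives. Macrophages also express Abca1, and the summed monocyte and macrophage markers stood at 85.8 to 99.7 CPM in E1KO and 39.4 to 47.6 CPM in E1WT libraries. Their part in the Abca1 result was not tested.

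The other 3 members of this role, Nr1h2, Abcg1 and Stard4, did not pass. Nr1h2, which encodes LXR-beta, had 90.1, 96.5, 113 and 105 CPM in E1KO libraries and 106, 110, 97.7 and 87.3 CPM in E1WT libraries. The ranges overlap almost fully (log2 fold 0.0092, 95% interval -0.18 to 0.20). Abcg1, the second efflux transporter and also an LXR target, had 235, 198, 169 and 195 CPM in E1KO libraries and 205, 170, 203 and 236 CPM in E1WT libraries, with the same overlap (log2 fold -0.03, 95% interval -0.27 to 0.21). That interval does not reach the fold of Abca1, but the difference between the 2 genes was not tested. Stard4, a carrier that moves sterol between membranes and an SREBP target, averaged 36.8 ± 2.97 CPM in E1KO and 36.6 ± 2.91 CPM in E1WT libraries.

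Of the fatty acid genes, 0 of 6 passed in edgeR, against 23.3% of all tested genes. Of the 6, 2 had an unadjusted p under 0.05, both lower in E1KO. At least 23.3% of all tested genes had such a p, and their exact share was not counted. Scd1, a desaturase that makes monounsaturated fatty acids and a target of both SREBP and LXR, had 55.3, 39.7, 35.5 and 42.6 CPM in E1KO libraries and 66.3, 44.4, 56.6 and 61.2 CPM in E1WT libraries. E1KO 1 and E1WT 2 are the libraries that overlap, and the log2 fold was -0.40 ± 0.14 (edgeR adjusted p = 0.066). It passed without E1KO 1 (0.0088), without E1WT 2 (0.016) and in DESeq2 (0.032). Its paralog Scd2 stood higher and had 168, 169, 147 and 147 CPM in E1KO libraries and 149, 141, 158 and 149 CPM in E1WT libraries, which overlap (log2 fold 0.08, adjusted p = 0.41). Reads that align to both paralogs are among those left out of the counts.

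Fasn, the fatty acid synthase, had 333, 291, 259 and 286 CPM in E1KO libraries and 350, 285, 341 and 383 CPM in E1WT libraries. The titles overlap, and the log2 fold of -0.22 ± 0.10 had an edgeR adjusted p of 0.12, which was 0.041 without E1KO 1 and 0.028 without E1WT 2. Acly, which makes cytosolic acetyl-CoA for both pathways, averaged 360 ± 22.4 CPM in E1KO and 370 ± 18.5 CPM in E1WT libraries, with a 95% interval of the log2 fold of -0.17 to 0.10. Acaca, the carboxylase that commits acetyl-CoA to fatty acids, and Elovl6, which lengthens palmitate, had log2 folds of -0.18 and -0.07 (edgeR adjusted p = 0.43 and 0.66).

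The sum of the fatty acid genes varied within each title. It was 1043, 957, 841 and 938 CPM in E1KO libraries 1 to 4 and 1036, 903, 1021 and 1107 CPM in E1WT libraries 1 to 4. Libraries also differed in how far long genes were over- or under-represented, given as the Spearman correlation, across 13254 genes, of the log2 deviation from the mean of all libraries with exon length. It was 0.22, -0.011, -0.32 and -0.23 in E1KO libraries and 0.082, -0.26, 0.090 and 0.32 in E1WT libraries. The sum is highest in E1KO 1 and E1WT 4 and lowest in E1KO 3 and E1WT 2 of each title, and so is this length trend. The median log2 deviation of the mevalonate enzymes was instead lowest in E1KO 1 and E1WT 4 and highest in E1KO 3 and E1WT 2. It was -0.0062, 0.047, 0.16 and 0.13 in E1KO libraries and -0.048, 0.10, -0.11 and -0.17 in E1WT libraries. With the trend removed, the log2 fold of Acaca, with 17074 exon bases the longest member, was 0.01, that of Fasn was -0.12 and that of Scd1 was -0.42 (edgeR adjusted p = 0.93, 0.14 and 0.037). Those of Mvd, Acat2, Fdps, Idi1 and Hmgcs1 were then smaller, at 0.24, 0.28, 0.16, 0.09 and 0.10. Those of Mvk, Pmvk and Lss were then farther from 0, at -0.41, -0.09 and 0.36.

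**Figure D4:**
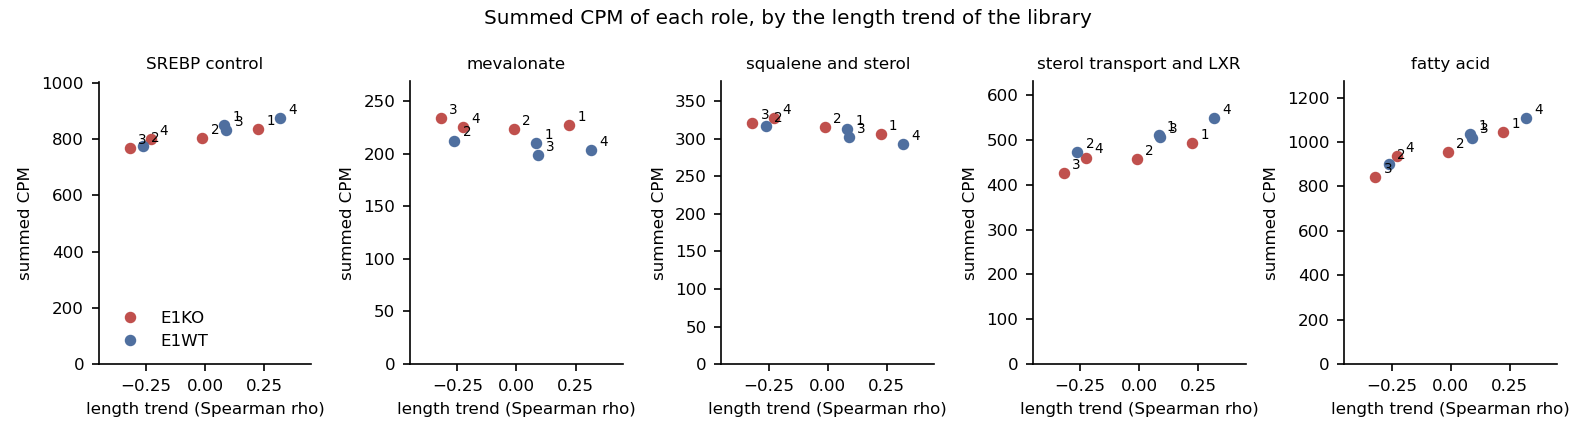
Summed CPM of the genes of each role in each library (vertical axes, from 0) against the library's length trend, the Spearman correlation of expression deviation with exon length (horizontal axes). Points are 4 E1KO and 4 E1WT libraries with their numbers. In each title the library with the lowest trend has the lowest fatty acid sum (841 CPM in E1KO, 903 CPM in E1WT) and that with the highest trend the highest (1043 CPM in E1KO, 1107 CPM in E1WT).

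Levels per length describe what these naive cells express. In CPM per kilobase of exon, Acly stood at 68.2 in E1KO and 70.01 in E1WT libraries, above all other members, followed by Srebf2 at 61.4 and 63.8. Mylip (26.9 in E1KO and 36.7 in E1WT), Fasn (26.7 and 31.0), Nr1h2 (30.1 and 29.9), Srebf1 (26.5 and 28.3), Abcg1 (27.3 and 27.9) and Scd2 (28.9 and 27.3) form the next group, whose order differs between the titles. The cholesterol enzymes lie lower. Hmgcs1 leads them at 16.9 in E1KO and 15.6 in E1WT, and Lss and Tm7sf2 are the lowest at 2.71 and 1.75 in E1KO and 2.26 and 1.85 in E1WT libraries. Exon length is the union of all annotated transcripts, which for Lss comes to 10787 bases.

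Other genes of sterol and fatty acid metabolism, 50 in a fixed list of which 48 were tested, were read from the same fit. Of the 48, 9 rose (18.8%, against 12.2% of all tested genes) and 3 fell (6.25%, against 11.1%). Without E1KO 4 or E1WT 3 the number that rose was 5 or 3, and without E1KO 2, E1WT 1, E1WT 2 or E1WT 3 the number that fell was 1. Fads2, which starts the desaturation of polyunsaturated fatty acids, had 6.46, 3.86, 4.27 and 5.27 CPM in E1KO libraries and 2.38, 1.95, 1.88 and 1.93 CPM in E1WT libraries. Every E1KO library lies above every E1WT library at a low level, with a log2 fold of 1.29 ± 0.19 (edgeR adjusted p = 0.00072). Tmem97, an SREBP-responsive sterol-binding membrane protein, rose by 0.50 ± 0.10 to 11.7 ± 0.59 CPM in E1KO, against 8.32 ± 0.85 CPM in E1WT libraries. Erlin1, which binds the SREBP-SCAP-INSIG complex in the endoplasmic reticulum, rose by 0.66 ± 0.16 on the log2 scale.

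Elovl5, which lengthens polyunsaturated fatty acids, Lpin1, a phosphatidate phosphatase, and Dhdds, of the dolichol branch of the mevalonate pathway, rose by 0.23, 0.23 and 0.30 on the log2 scale (edgeR adjusted p = 0.012, 0.014 and 0.018). Lipa, the lysosomal lipase that frees cholesterol from its esters, fell to 127 to 141 CPM in E1KO, against 154 to 161 CPM in E1WT libraries (log2 fold -0.24 ± 0.05, edgeR adjusted p = 0.0064). Lpcat3, an LXR target that places polyunsaturated chains in phospholipids, and Elovl7, an elongase of saturated chains, fell by 0.27 and 0.74 on the log2 scale (edgeR adjusted p = 0.035 and 0.047). Fads2, Tmem97, Erlin1 and Lipa passed in all 18 alternatives. The other 3 that rose, Pgrmc1, Hacd2 and Gramd1c, fall outside the naming rule and were chosen for naming from their values. The list was chosen with results on this pathway known, so its counts describe these genes and are no independent evidence on the 34.

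**Figure D5:**
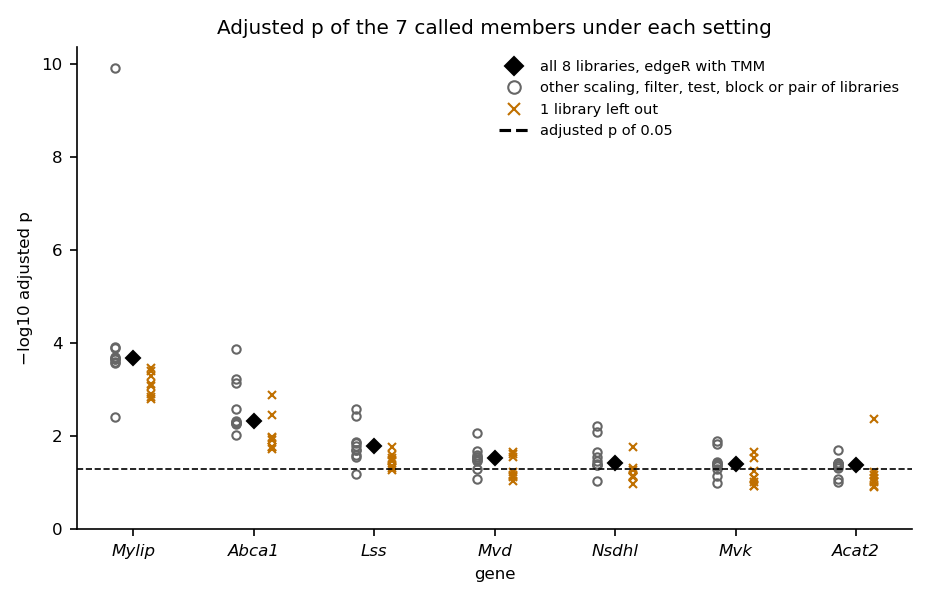
Adjusted p (vertical axis, −log10 scale) of the 7 called members in the fit with all 8 libraries (black diamonds), under the other scalings, filters, tests and library sets (open circles) and with 1 library left out (crosses). The dashed line marks 0.05. All points of Mylip and Abca1 lie above it, and each of the other 5 genes has points below it.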

How the data were processed

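RNA from naive splenic CD4+ T cells was read as 75-base paired ends from 50 ng of total RNA per library. The deposited files hold raw read counts per gene symbol for 8 libraries. TopHat2 2.1.0, HTSeq 0.9.1 and mm10 are named in the submitters' processing notes; the annotation, strand setting and filters were not stated there. The 5 rows for reads given to no gene were left out. They held 28.2% to 30.8% of counts in E1KO and 33.3% to 37.0% in E1WT libraries. The part of this difference in the results was not tested. Reads with several alignments are among those left out, so near-identical genes are undercounted.

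Libraries were grouped by title. edgeR 4.0.16 in R 4.3.3 (TMM, count minimum 10, total minimum 15, quasi-likelihood test) was fitted to all genes, with Benjamini-Hochberg adjustment over 13333. Folds are E1KO over E1WT, with SE from the F statistic and CPM on the TMM scale. Intervals are at 95%. No pair of libraries of a title agreed within sampling noise (chi-square per degree of freedom 4.20 to 64.4). Marker sums were compared by exact two-sided permutation tests, whose smallest p is 0.0286 in this design. Of 9 lists, 7 (all but CD8 T and B cell markers) had that p, or 0.0367 after adjustment. CD4 and naive T cell and neutrophil sums were lower in E1KO, and monocyte, dendritic, NK and erythroid sums higher.

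Members and lists were chosen with earlier results of these data known. Called members, and the member of each role with the smallest p, are given in every library. Of the wider list, up to 6 called genes a direction are named by p. The values of Srebf2, Insig1, Hmgcs1, Ebp, Sqle, Nr1h2, Abcg1, Scd2, Fasn and Fads2 in every library, and the promoters of Hmgcs1, Mylip and Abca1, were added to this rule. Alternatives used DESeq2 1.42.0, limma 3.58.1, other scaling and filters, a replicate block, an exon-length correction, autosomes alone, and libraries left out. Gene positions and exon lengths come from GENCODE M21 (GRCm38, the assembly of mm10), in which 23376 of 24421 symbols matched by name and 670 by an older symbol.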

Additional observations from a re-analysis of the deposited data

Results flagged for a closer look

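In 4 of 68 groups of 4 libraries (34 genes in each title), 1 library stood apart from the other 3 by Dixon's test at 95%, where chance alone flags about 1 in 20 groups. Acat2 was at 18.7 CPM in E1WT 2, against 13.8 to 14.5 CPM in the other E1WT libraries, and its fold is larger without that library. Tm7sf2 was at 7.08 CPM in E1WT 4, against 8.44 to 8.58 CPM in the other E1WT libraries. Hsd17b7 and Stard4 were low in E1KO 3, at 14.5 and 32.4 CPM, against 16.9 to 17.1 and 38.0 to 38.6 CPM in the other E1KO libraries.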

How the results depend on the processing

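Replicate numbers are shared between the titles, but same-numbered libraries did not deviate together (correlations of -0.099 to 0.014) and 0 of 8 libraries correlated best with their own number. With the number as a block, 0 members rose and 3 (Mylip, Abca1 and Scd1) fell, so that the calls of Lss, Mvd, Acat2, Mvk and Nsdhl were lost (adjusted p 0.064 to 0.10), and 5 wider genes rose and 1 fell, with 1151 of all genes higher and 1005 lower. With the exon-length trend removed 5 wider genes fell; the cause of these differences was not tested. DESeq2 called 1836 genes higher and 1888 lower, and 4 members higher and 6 lower. Leaving out 1 library gave 1194 to 1659 genes higher and 1010 to 1566 lower, 0 to 4 members higher and 2 to 4 lower, 3 to 10 wider genes higher and 1 to 3 lower, and a member median of -0.038 to -0.0067. Of the 34 members, 2 passed everywhere, 5 in part, 4 others (Srebf1, Ebp, Fasn, Scd1) only under some alternatives and 23 under none. The sign changed under some alternative for 10 members, 0 of them called. A gene that did not pass may still differ within its interval. Nsdhl and Ebp have no value with autosomal genes alone.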
